A study of Mus musculus with 171 samples.

Results

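The nuclear genes for the subunits of respiratory complexes II to V were followed in single cells of early mouse embryos that lack Stat3 and of wild-type embryos. A member was any protein-coding gene whose symbol begins Uqcr or Atp5, is Cyc1 or one of Sdha to Sdhd, or names a nuclear Cox subunit from Cox4 to Cox8 followed by a letter a, b or c. This gave 46 of the 49671 gene rows, or 46 of the 21811 protein-coding ones, with 4 in complex II, 9 in complex III, 16 in complex IV and 17 in complex V. Cox4i1 carries the symbol of a complex IV subunit but falls outside that pattern, so it is given with the other genes of the pathway. The 46 are co-members of complexes and not replicates of a condition.

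The cells came from 6 groups. At E3.75 (E for embryonic day) they were 9 epiblast (EPI) cells of 4 Stat3 -/- (MUT) embryos, 19 EPI cells of 3 wild-type (WT) embryos, 14 primitive endoderm (PrE) cells of the same 4 MUT embryos and 10 PrE cells of the same 3 WT embryos. At E3.5 they were 55 inner cell mass (ICM) cells of 5 MUT embryos and 64 ICM cells of 5 WT embryos. The ICM is the source of both later lineages: EPI forms the fetus and PrE forms the yolk sac endoderm. The cytokine LIF signals through STAT3, a transcription factor. The genotype label gives no more than the loss of Stat3 on both alleles; strain, design of the allele and any restriction of the loss to a cell type are not stated in the labels. For the later cells the stage E3.75 is that of the sample titles, while the source label reads E3.5.

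The replicate was the embryo: the counts of an embryo's cells of a lineage were summed, which gave 24 sums from 17 embryos. Totals ran from 163822 to 25095390 counts per cell and from 8117787 to 122331780 per sum, and the EPI sum of MUT embryo 2 and the PrE sum of WT embryo 3 each held 1 cell. Stat3 itself averaged 8.77 ± 12.4 CPM (counts scaled to a common library total) in MUT EPI against 134 ± 42.5 CPM in WT EPI, 12.8 ± 5.80 against 91.6 ± 59.2 CPM in PrE, and 6.29 ± 5.57 against 70.7 ± 25.03 CPM in the ICM (SD over embryos, as for every mean below). The lineage labels fitted their markers in most sums: the 8 epiblast markers summed to 1430 to 2835 CPM in MUT EPI and 2502 to 3451 CPM in WT EPI, against 47.5 to 168 CPM in MUT PrE and 110 to 1540 CPM in WT PrE. Trophectoderm markers (9 genes) summed to up to 4488 CPM in 1 WT PrE sum, against 213 CPM in the lowest WT PrE sum. Levels below are CPM after TMM scaling over the 24 sums.

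The respiratory chain and ATP synthase sit in the inner mitochondrial membrane. Complex II (succinate dehydrogenase) passes electrons from the citric acid cycle to ubiquinone, and all of its subunits are nuclear genes. Complex III passes them to cytochrome c, complex IV (cytochrome c oxidase) passes them on to oxygen, and complex V (ATP synthase) uses the proton gradient so made to form ATP. Complexes III to V are built from subunits of both genomes, so their assembly draws on nuclear and mitochondrial transcripts. Preimplantation embryos shift their energy metabolism around the blastocyst stage, and STAT3 has been described both in the nucleus and in mitochondria of naive mouse pluripotent cells.

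The promoters of 4 members are shown, chosen after the values were seen. Uqcrfs1 and Cox5a were low together in 3 WT ICM embryos, Uqcrc1 had the smallest p of any member in any comparison, and Cox6a1 is the form that made up the Cox6a family in every embryo. Each is the 300 bases from 250 before to 50 after the RefSeq gene start (GRCm38.p6), 5′ to 3′ on the gene's strand: Uqcrfs1 at chr13:30545267-30545566 (minus strand), Cox5a at chr9:57520982-57521281 (plus), Uqcrc1 at chr9:108936398-108936697 (plus) and Cox6a1 at chr5:115348909-115349208 (minus). Capitals mark matches on either strand to the cores of NRF1 (GCATGCG, which overlaps its own reverse complement) and of ETS factors such as GABP (CCGGAAG), both described as regulators of nuclear respiratory genes.
Uqcrfs1: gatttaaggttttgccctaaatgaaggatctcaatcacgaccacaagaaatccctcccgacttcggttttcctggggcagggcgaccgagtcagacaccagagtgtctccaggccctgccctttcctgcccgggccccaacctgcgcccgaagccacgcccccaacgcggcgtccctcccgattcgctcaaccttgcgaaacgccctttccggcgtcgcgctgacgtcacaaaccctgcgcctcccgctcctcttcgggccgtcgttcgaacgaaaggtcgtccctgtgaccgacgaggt
Cox5a: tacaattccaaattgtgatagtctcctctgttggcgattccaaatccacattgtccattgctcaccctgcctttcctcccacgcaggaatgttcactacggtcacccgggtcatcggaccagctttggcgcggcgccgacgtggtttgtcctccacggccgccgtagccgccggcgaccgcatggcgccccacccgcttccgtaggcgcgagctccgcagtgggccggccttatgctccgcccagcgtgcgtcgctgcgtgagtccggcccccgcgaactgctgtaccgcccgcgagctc
Uqcrc1: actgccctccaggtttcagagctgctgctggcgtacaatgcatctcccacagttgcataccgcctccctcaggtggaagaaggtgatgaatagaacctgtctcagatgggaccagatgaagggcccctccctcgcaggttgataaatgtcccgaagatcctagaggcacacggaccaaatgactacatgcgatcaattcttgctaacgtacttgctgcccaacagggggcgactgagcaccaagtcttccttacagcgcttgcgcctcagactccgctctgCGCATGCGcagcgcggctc
Cox6a1: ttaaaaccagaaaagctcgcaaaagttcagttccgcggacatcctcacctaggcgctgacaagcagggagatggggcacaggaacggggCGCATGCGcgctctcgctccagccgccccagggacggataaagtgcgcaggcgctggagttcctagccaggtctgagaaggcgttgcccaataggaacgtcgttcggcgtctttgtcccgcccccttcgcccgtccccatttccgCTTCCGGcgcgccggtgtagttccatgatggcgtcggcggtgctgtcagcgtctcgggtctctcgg
Among these 4 windows the NRF1 core stood in Uqcrc1 and Cox6a1 and the ETS core in Cox6a1, while Uqcrfs1 and Cox5a held neither. RefSeq promoters were matched for 36 of the 46 members (39 windows). The NRF1 core was found in 20.5% of these windows, against 3.58% of all 32851 promoters, and the ETS core in 30.8% against 8.86%. The cores of YY1 (AAGATGG) and ERR (AAGGTCA) were found in 10.3% and 12.8% of members' windows, against 6.34% and 4.72% of all promoters. The STAT site TTCNNNGAA was found in 10.3% of members' windows, all 4 of them in complex V, against 8.3% of all promoters. These are matches of letters in a window, described without a test.

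Most members were expressed in every group, and the summed levels of complexes III and IV were close between E3.75 embryos and scattered between ICM embryos. Of the 46, 41 averaged at least 10 CPM over the 24 sums. The tissue-restricted isoforms were the exception: Cox6a2 had 8 counts in all cells together, Cox8c 1, Cox8b 0, and Cox7b2 441 counts in 11 cells. Complex II summed to 942 ± 37.2 CPM in MUT EPI, 892 ± 93.6 in WT EPI, 1090 ± 51.1 in MUT PrE, 882 ± 109 in WT PrE, 838 ± 94.2 in MUT ICM and 1275 ± 272 in WT ICM. Complex III summed to 3466 ± 195, 3512 ± 82.7, 3419 ± 254, 3834 ± 376, 4570 ± 2030 and 4575 ± 1620 CPM in the same order of groups. In complexes III and IV the SD between ICM embryos was several times that between E3.75 embryos.

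For complex IV the sums were 4714 ± 587 CPM in MUT EPI, 4806 ± 211 in WT EPI, 4386 ± 617 in MUT PrE, 5264 ± 137 in WT PrE, 4155 ± 2282 in MUT ICM and 3687 ± 2096 in WT ICM. For complex V they were 8827 ± 306, 8973 ± 349, 9501 ± 519, 9647 ± 1072, 10127 ± 3123 and 9951 ± 1298 CPM. These are sums of transcripts with different lengths, so they compare groups within a complex and not complexes with each other.

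**Figure D1:**
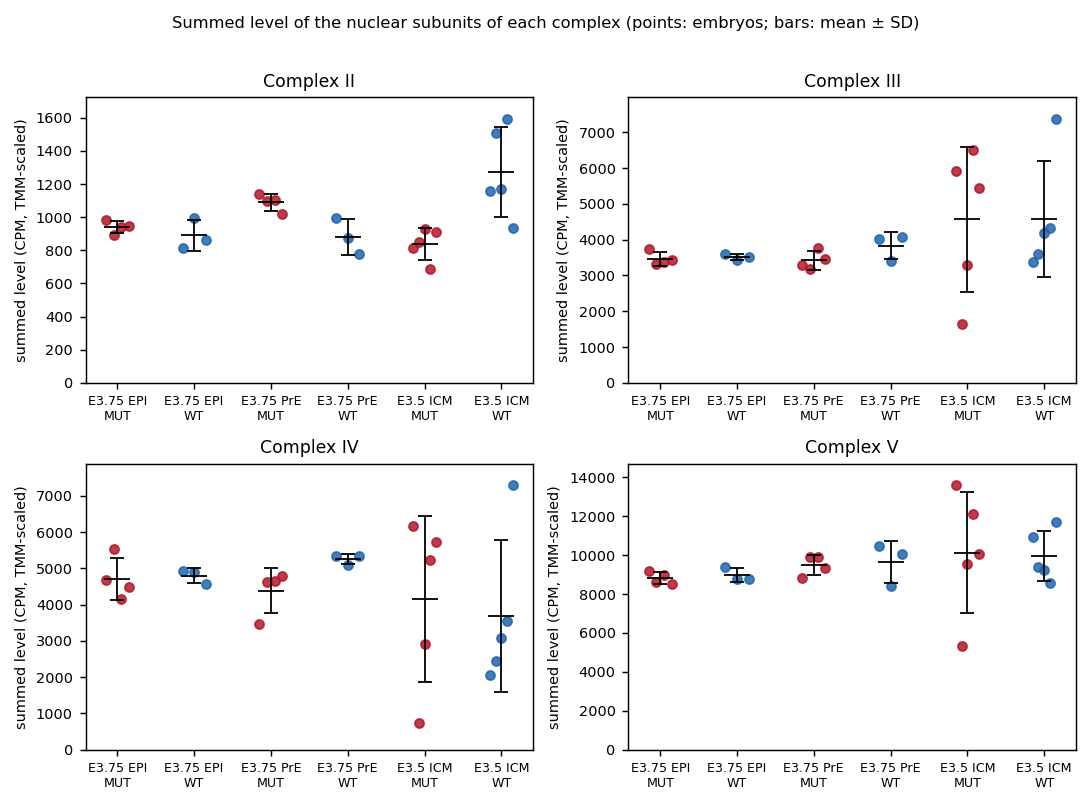
Summed level of the nuclear subunits (CPM, TMM-scaled; vertical axis from 0) of complexes II, III, IV and V in each embryo (points) of the 6 groups, with the mean and SD as bars. In complexes III and IV the E3.75 embryos lie close together and the ICM embryos spread, in complex IV from 748 to 6164 CPM in MUT and from 2049 to 7292 CPM in WT.

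The spread between embryos differed between the stages. Among expressed genes (at least 100 CPM), the SD over embryos on the log2 scale had a median of 0.262 for members and 0.432 for all such genes in MUT EPI, 0.155 and 0.235 in WT EPI, 0.203 and 0.326 in MUT PrE, and 0.241 and 0.381 in WT PrE. In MUT ICM the order was the other way round, with 1.23 for members and 0.842 for all such genes, and in WT ICM the values were 0.607 and 0.586. Members therefore varied less than other genes between E3.75 embryos, as medians without a test, and more between MUT ICM embryos. The sets were not matched for level or transcript length. Of the 41 members at 10 CPM or more, 36 were lowest in embryo 10 among the MUT ICM embryos. With edgeR's quasi-likelihood test, adjusted by Benjamini-Hochberg over all genes tested, 0 of the 42 members tested passed an adjusted p of 0.05 in any of the 9 comparisons of 2 groups, and 0 of 43 in any of the 3 comparisons of genotype effects. DESeq2 called 1 member between EPI and ICM in MUT (Atp5s), 4 in WT (Atp5f1, Cox7a2l, Uqcrc1 and Uqcrc2, all lower in EPI), 1 between PrE and ICM in WT (Uqcrc2, lower in PrE) and 1 for the difference of genotype effects between EPI and ICM (Atp5s). The counts at an unadjusted p under 0.05 are given with each comparison.

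**Figure D2:**
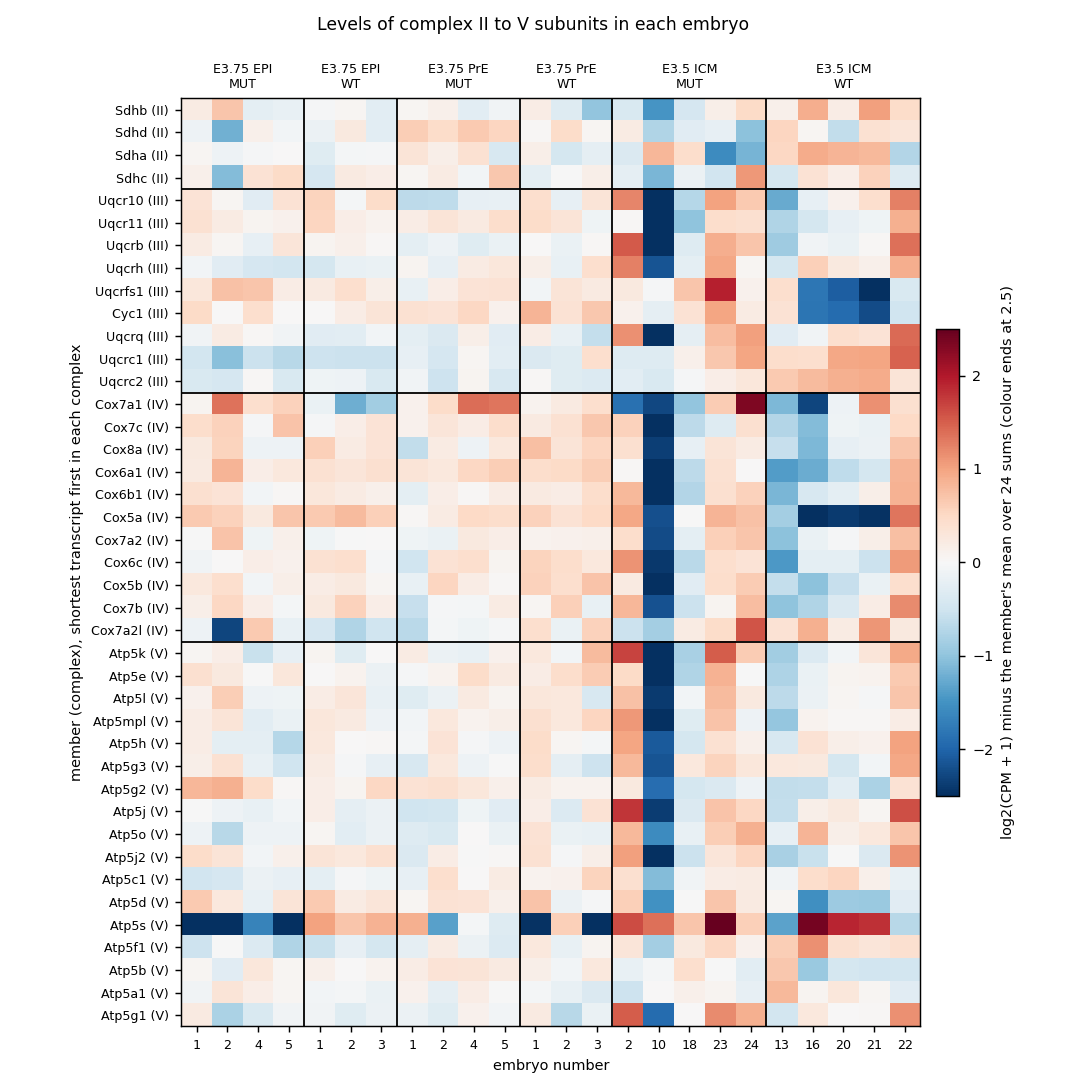
Level of each member in each of the 24 embryo sums, as log2(CPM + 1) relative to that member's mean over the sums (colour scale), with members in rows by complex and sums in columns by group. The E3.75 columns are nearly even, and the ICM columns hold the strong colours: MUT ICM embryo 10 is low in most rows of complexes III to V and WT ICM embryo 22 is high in them.

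After TMM scaling, complex II was the complex whose summed level was lower in every MUT ICM embryo than in every WT ICM embryo. It was 815, 849, 926, 690 and 910 CPM in MUT ICM embryos 2, 10, 18, 23 and 24, against 1161, 1511, 1171, 1596 and 938 CPM in WT ICM embryos 13, 16, 20, 21 and 22. The highest MUT embryo lay just under the lowest WT embryo. The order depends on the scaling: with RLE size factors the ranges were 763 to 935 CPM in MUT and 911 to 1491 CPM in WT, and as a percentage of all counts they were 0.0653 to 0.0967% and 0.0749 to 0.156%, so that the groups overlapped in both. None of its 4 members was called.

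Sdha (chr13:74322254-74350280, minus strand, mm10), the flavoprotein that oxidises succinate, stood at 244, 565, 426, 105 and 140 CPM in MUT ICM embryos and 453, 603, 569, 557 and 189 CPM in WT ICM embryos. Sdhb (chr4:140961203-140979193, plus), the iron-sulfur subunit that passes the electrons on, stood at 214, 99.3, 206, 308 and 385 CPM in MUT ICM and 302, 519, 314, 564 and 382 CPM in WT ICM. Both genes overlapped between the genotypes, and the lowest values were in MUT: embryo 23 for Sdha and embryo 10 for Sdhb. Sdhc (chr1:171127165-171150603, minus) and Sdhd (chr9:50596357-50603812, minus), the membrane anchors that bind ubiquinone, averaged 134 ± 86.1 and 166 ± 55.2 CPM in MUT ICM, against 145 ± 42.7 and 240 ± 65.7 CPM in WT ICM. All 4 genes had a negative log2 fold change, from -0.78 for Sdhb (edgeR SE 0.39, adjusted p = 0.776) to -0.11 for Sdhc, with a median of -0.62. The median over all 12270 genes tested was -0.05. Without MUT embryo 10 the median of complex II was -0.47.

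In the ICM the epiblast markers moved with the genotype as well: 8 of 8 were detected in both groups, and their sum was 596 to 1428 CPM in MUT ICM and 2439 to 3141 CPM in WT ICM. The 10 primitive endoderm markers summed to 100 to 2253 CPM in MUT ICM and 274 to 862 CPM in WT ICM, and the 9 trophectoderm markers to 210 to 606 CPM and 307 to 522 CPM. The part of cell makeup in the complex II values was not tested. Embryo sex is not in the labels and was inferred from expression. An embryo was taken as male where Ddx3y, Eif2s3y, Kdm5d and Uty, all Y-linked, together exceeded Xist in CPM. The inferred sex differed too, with 1 male and 4 female MUT embryos against 3 male and 2 female WT embryos at E3.5.

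Between MUT and WT ICM, edgeR called 0 of the 12270 genes tested (0%) and DESeq2 called 104. At an unadjusted p under 0.05, 2 members were higher and 1 lower in MUT, or 3 of 42, where 6.64% of all genes tested passed. The members' share is near that of all genes. The 3 were subunits of complex III, Cyc1 and Uqcrfs1 of its redox chain and Uqcrc2 a core protein without a redox centre, and they did not go the same way. Cyc1 (chr15:76343523-76346260, plus), the cytochrome c1 that hands electrons to cytochrome c, stood at 410, 325, 490, 753 and 438 CPM in MUT ICM, against 487, 106, 99.8, 79.4 and 267 CPM in WT ICM. Uqcrfs1 (chr13:30540308-30545362, minus), the Rieske iron-sulfur protein that passes electrons to Cyc1, stood at 223, 184, 305, 727 and 203 CPM in MUT ICM, against 252, 52.9, 44.3, 23.4 and 144 CPM in WT ICM. For both genes WT embryos 16, 20 and 21 were the low ones, and WT embryo 13 lay among the MUT embryos. The log2 fold changes were 1.20 for Cyc1 (edgeR SE 0.51, adjusted p = 0.734) and 1.65 for Uqcrfs1 (SE 0.63, adjusted p = 0.727).

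Uqcrc2 (chr7:120635176-120659524, plus), a core protein of the matrix side of complex III, was the member whose ICM embryos did not overlap after TMM scaling: 273, 253, 322, 369 and 402 CPM in MUT ICM, against 516, 570, 611, 624 and 410 CPM in WT ICM. The gap was narrow, since MUT embryo 24 and WT embryo 22 lay 1 beside the other. RLE levels were 1.028 times TMM levels in MUT embryo 24 and 0.971 times in WT embryo 22. With RLE the order of these embryos thus reversed and the groups overlapped. Its log2 fold change was -0.76 (SE 0.31, edgeR adjusted p = 0.728). This made 1 of 42 members with no overlap, or 2.38%, where 1.55% of all genes tested had none. Uqcrc1 (chr9:108936633-108949623, plus), the other core protein, stood at 583, 580, 787, 1160 and 1432 CPM in MUT ICM and 982, 975, 1410, 1435 and 2025 CPM in WT ICM, with overlap.

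Low values in WT embryos 16, 20 and 21 recurred in Cox5a and, less so, in Atp5d. Cox5a (chr9:57521274-57532426, plus), a matrix-side subunit of complex IV, stood at 558, 61.6, 285, 513 and 476 CPM in MUT ICM and 158, 40.6, 53.7, 50.9 and 722 CPM in WT ICM. MUT embryo 10 lay just above the 3 low WT embryos and WT embryo 22 was the highest of the 10, so the groups overlapped (log2 fold change 0.89, SE 0.77, edgeR adjusted p = 0.902). In single cells of WT embryos 16, 20 and 21 the median level of Cox5a was 3.82, 3.745 and 9.97 CPM, against 115 and 293 CPM in the cells of WT embryos 13 and 22. Atp5d, the delta subunit in the central stalk of complex V, stood at 517, 118, 338, 546 and 397 CPM in MUT ICM and 352, 116, 180, 177 and 278 CPM in WT ICM (log2 fold change 0.78, SE 0.45, edgeR adjusted p = 0.797). Letters in the titles, whose meaning is not stated, differ between ICM embryos, and their part in these values was not tested.

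**Figure D3:**
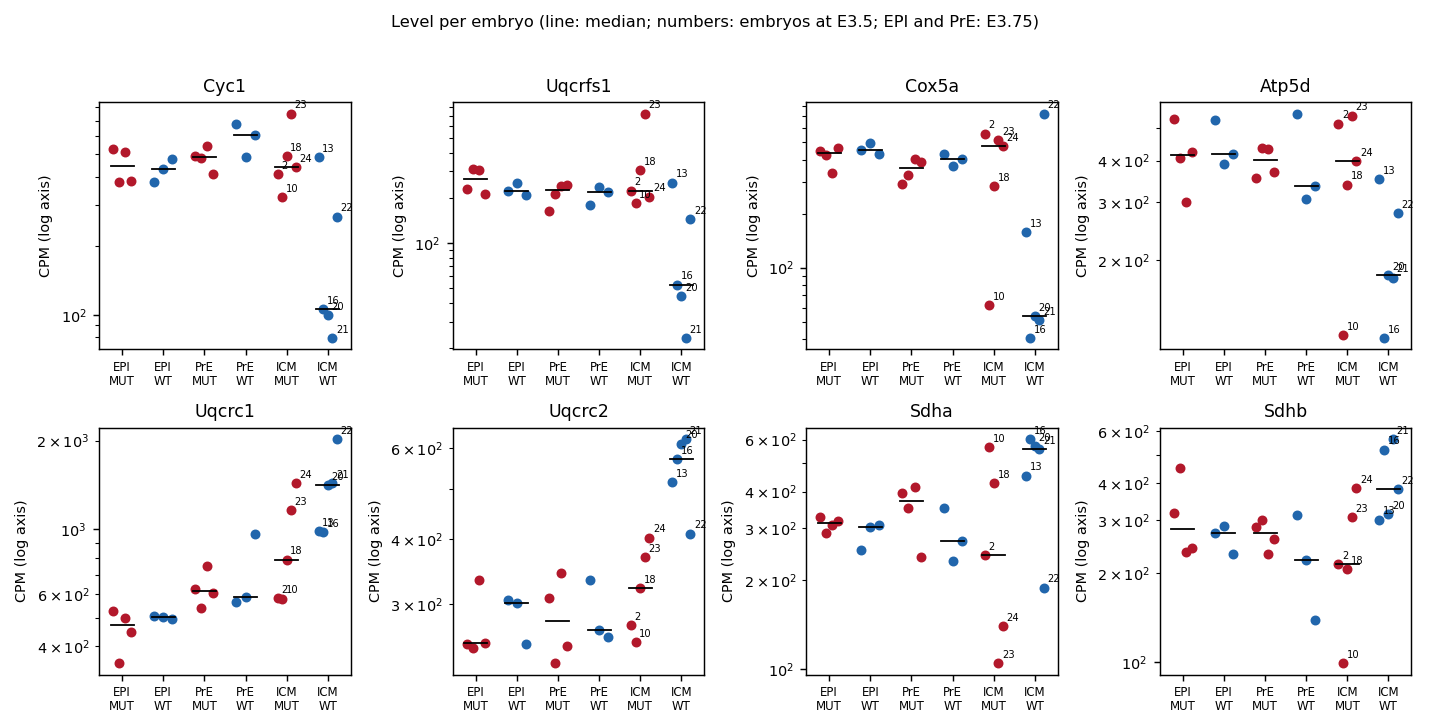
Level (CPM, TMM-scaled) of selected members in each embryo (points) of the 6 groups, with the median as a line, on a log axis; numbers name the ICM embryos. In the ICM panels WT embryos split for Uqcrfs1 (23.4 to 252 CPM) and Cox5a (40.6 to 722 CPM), while at E3.75 both genes stay within 165 to 313 CPM and 294 to 494 CPM.

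By complex, the median log2 fold changes of MUT against WT ICM were -0.62 in complex II (0 of 4 members higher), 0.01 in complex III (5 of 9), 0.11 in complex IV (11 of 12 tested) and 0.09 in complex V (9 of 17). Single embryos moved the last 3 medians. Without MUT embryo 10 they were 0.35, 0.44 and 0.28, with 7 of 9, 12 of 12 and 15 of 17 members higher in MUT; without WT embryo 22 they were 0.33, 0.54 and 0.19.

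**Figure D4:**
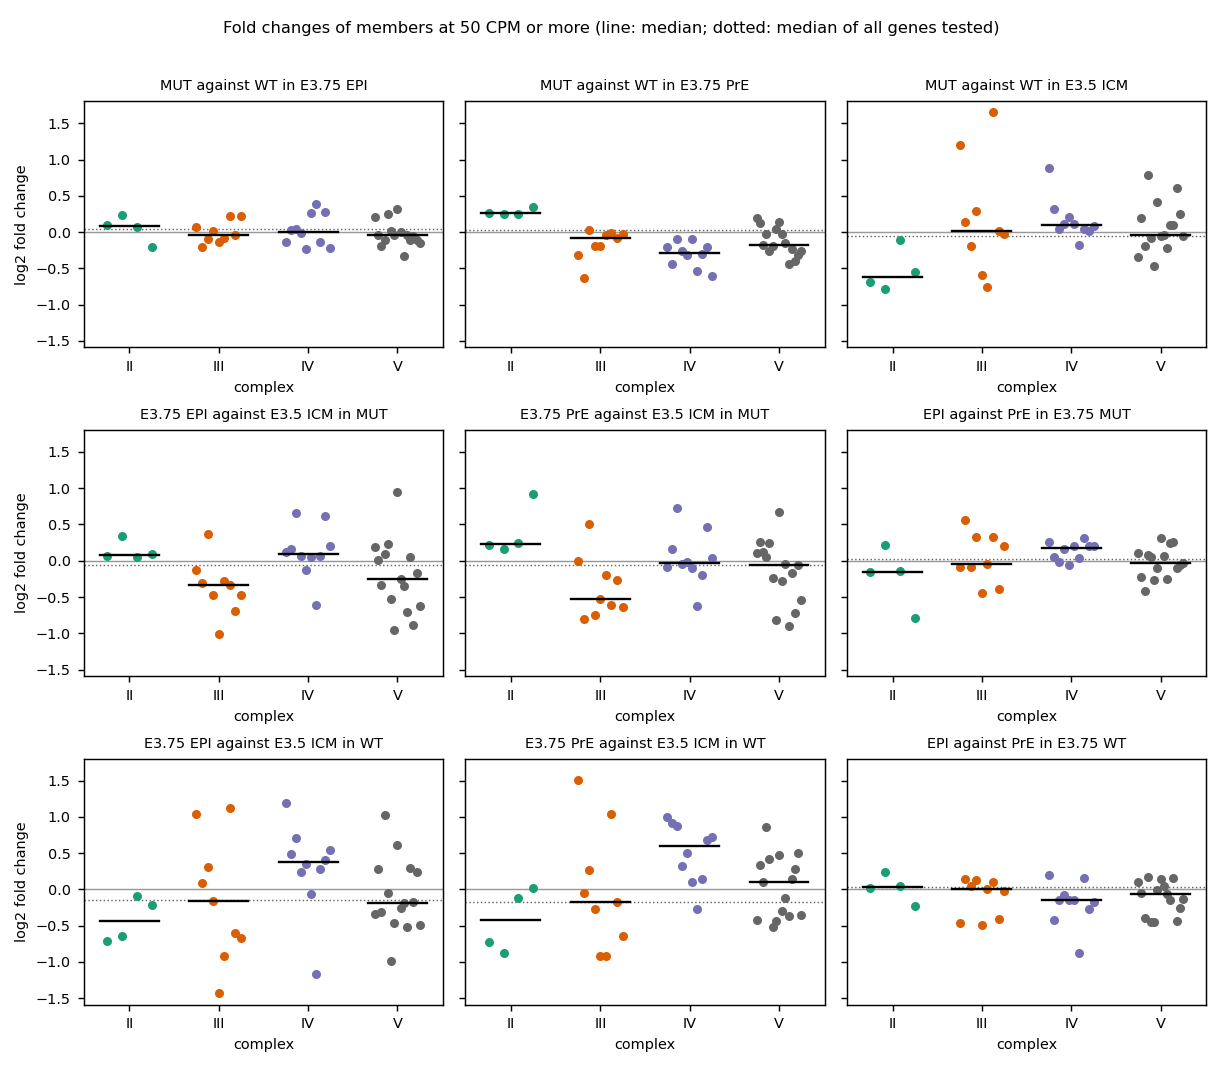
Log2 fold change of each member at 50 CPM or more (points) by complex in the 9 comparisons of 2 groups, with the median of these members (line) and of all genes tested (dotted). All 4 points of complex II lie below 0 between MUT and WT ICM and above 0 between MUT and WT PrE, and the median of complex IV lies above 0 between E3.75 and ICM in WT.

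In EPI the complex medians lay near 0 between the genotypes, and the members that differed most were rare ones. EdgeR called 0 of the 12298 genes tested (0%), DESeq2 called 187, and at an unadjusted p under 0.05 there was 1 member, lower in MUT, where 4.63% of all genes passed. It was Atp5s, coupling factor B of complex V, at 0, 0, 1.003 and 0.118 CPM in MUT EPI embryos 1, 2, 4 and 5, against 11.8, 9.31 and 10.6 CPM in WT EPI embryos 1 to 3 (edgeR adjusted p = 0.951). It held 36 counts in all of MUT EPI, against 2414 in WT EPI, and passed the filter on low counts through WT alone, so it had to differ. In PrE, where it stood at 10.8, 1.49, 5.20 and 4.08 CPM in MUT and 0.161, 8.72 and 0 CPM in WT, it did not keep that order. Cox7a1, the form of subunit 7a known from heart and muscle, stood at 18.5, 46.7, 24.2 and 26.9 CPM in MUT EPI and 15.6, 7.06 and 9.29 CPM in WT EPI (log2 fold change 1.45, SE 0.66, edgeR adjusted p = 0.9999). These were the 2 of 42 members with no overlap, or 4.76%, where 7.59% of all genes tested had none.

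The complex medians in EPI were 0.09 in complex II (3 of 4 higher), -0.04 in complex III (4 of 9), 0.04 in complex IV (7 of 12) and -0.04 in complex V (5 of 17), against 0.04 for all genes. In complex II, Sdha averaged 311 ± 16.6 CPM in MUT EPI and 289 ± 30.0 CPM in WT EPI, and Sdhb 311 ± 99.4 and 263 ± 29.4 CPM. Sdhc averaged 141 ± 55.3 CPM in MUT EPI and 134 ± 30.8 CPM in WT EPI, and Sdhd 179 ± 60.3 and 205 ± 39.3 CPM. The 1-cell sum of MUT embryo 2 held the highest Sdhb (450 CPM) and the lowest Sdhc and Sdhd (62.6 and 91.7 CPM) of the MUT EPI sums. Among the larger members, Uqcrq, a small membrane subunit of complex III, had the smallest p of its complex (log2 fold change 0.22, SE 0.17, edgeR adjusted p = 0.9999).

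In PrE the summed level of complex II was higher and that of complex IV lower in MUT than in WT embryos. Complex II summed to 1141, 1096, 1105 and 1020 CPM in MUT PrE embryos 1, 2, 4 and 5, against 994, 877 and 776 CPM in WT PrE embryos 1 to 3. The groups did not overlap with TMM scaling, with RLE (1002 to 1146 against 834 to 990 CPM) or as a percentage of counts (0.103 to 0.123% against 0.0837 to 0.0994%). Complex IV summed to 3467, 4625, 4668 and 4786 CPM in MUT PrE and 5332, 5106 and 5353 CPM in WT PrE. As a percentage of counts complex IV overlapped (0.349 to 0.555% in MUT and 0.533 to 0.578% in WT). The sums are given with no test. Lineage markers differed in mean between the genotypes, with overlap. The 8 epiblast markers, all detected in both groups, summed to 80.0 ± 58.9 CPM in MUT PrE (47.5 to 168) and 718 ± 738 CPM in WT PrE (110 to 1540). The 9 trophectoderm markers (7 detected in MUT, 9 in WT) summed to 160 to 1331 CPM in MUT PrE and 213 to 4488 CPM in WT PrE, and the 10 primitive endoderm markers (10 and 9 detected) to 2452 to 3765 CPM and 1056 to 2953 CPM. Their part in the complex II and IV values was not tested.

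Among single genes, edgeR called 0 of the 11765 tested between MUT and WT PrE (0%) and DESeq2 called 157. At an unadjusted p under 0.05 there were 2 members, both lower in MUT, where 4.63% of all genes passed. Uqcr10 (chr11:4701973-4704342, minus), a small subunit of complex III beside cytochrome c1, stood at 265, 266, 358 and 365 CPM in MUT PrE and 554, 361 and 523 CPM in WT PrE. Cox8a (chr19:7215153-7217616, minus), a single-helix membrane subunit of complex IV, stood at 314, 558, 441 and 577 CPM in MUT PrE and 815, 606 and 703 CPM in WT PrE. Uqcr10 overlapped at WT embryo 2, and Cox8a was the 1 member of 42 with no overlap, or 2.38%, where 6.7% of all genes tested had none. Their log2 fold changes were -0.64 for Uqcr10 (SE 0.22, edgeR adjusted p = 0.975) and -0.61 for Cox8a (SE 0.23, adjusted p = 0.991).

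Sdhd stood at 324, 288, 333 and 307 CPM in MUT PrE and 216, 291 and 218 CPM in WT PrE (log2 fold change 0.35, SE 0.17, edgeR adjusted p = 0.99999). WT embryo 2 reached the MUT values. Atp5j, the F6 subunit of the stator of complex V, averaged 502.5 ± 64.6 CPM in MUT PrE and 669 ± 160 CPM in WT PrE. The complex medians were 0.26 in complex II (4 of 4 higher), -0.07 in complex III (1 of 9), -0.29 in complex IV (1 of 12) and -0.15 in complex V (5 of 17), against 0.03 for all genes. By the sex inferred from expression, all 4 MUT embryos of E3.75 were male and 1 of 3 WT embryos was. With embryo sex as a covariate the median of complex II was 0.40 and that of all genes 0.46. With the title letter as a covariate they were 0.36 and 0.40. The male WT embryo, embryo 3, is also the only WT embryo that shares a letter (A) with MUT embryos. Both covariates thus set MUT against that embryo's PrE sum of 1 cell. They cannot decide whether complex II stood above the other genes.

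Whether the genotype effect differed between the lineages was tested directly, in a fit that ignored the pairing of EPI and PrE by embryo. EdgeR called 0 of the 14220 genes tested (0%) and DESeq2 333, and 0 of 43 members had an unadjusted p under 0.05, where 5.51% of all genes did. The median of the differences (EPI effect minus PrE effect) was -0.21 in complex II (0 of 4 positive), 0.18 in complex III (6 of 9), 0.35 in complex IV (13 of 13) and 0.08 in complex V (9 of 17), against -0.08 for all genes. Without the sums of 1 cell the median of complex IV was 0.18, with 11 of 13 positive. The smallest p in each complex belonged to Sdhd (difference -0.59, SE 0.37, edgeR adjusted p = 0.983), Cyc1 (0.36, SE 0.25), Cox7b2 (8.398, SE 4.54, from counts in few cells) and Atp5s (-6.09, SE 2.98).

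The genotype effects of the stages were compared in the same way, and edgeR called no member, while DESeq2 called Atp5s for EPI against ICM (adjusted p = 0.00495). For EPI against ICM, edgeR called 0 of the 15756 genes tested (0%) and DESeq2 501, and 1 member, Atp5s, had an unadjusted p under 0.05 (difference -6.10, SE 1.85, adjusted p = 0.231, with 36 counts in all of MUT EPI), where 9.25% of all genes did. For PrE against ICM, edgeR called 0 of the 15614 genes tested (0%) and DESeq2 534, and 1 member, Cyc1, had an unadjusted p under 0.05 (difference -1.50, SE 0.65, adjusted p = 0.485), where 9.2% of all genes did. All 4 members of complex II had a positive difference in both, with medians of 0.55 and 0.94, against -0.10 and 0.04 for all genes. Sdhb came nearest, at 1.0 (SE 0.51, edgeR adjusted p = 0.58) for EPI and 1.06 (SE 0.51, adjusted p = 0.551) for PrE. Both differences use the same ICM embryos and are not independent. In the other complexes the medians were -0.08 and -0.07 (III), -0.14 and -0.35 (IV), and -0.14 and -0.16 (V).

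In WT embryos the core proteins of complex III stood lower at E3.75 than in the ICM and most of complex IV stood higher, and edgeR called none of them. DESeq2 called Uqcrc1 (adjusted p = 0.00111) and Uqcrc2 (adjusted p = 0.0115) in EPI and Uqcrc2 in PrE (adjusted p = 0.0315), all lower than in the ICM. Limma-trend called 10 members in EPI and 6 in PrE, all higher than in the ICM, among them Cox5a and Cox6a1 in both lineages; under it the median of all genes was above 0 as well, at 0.68 in EPI and 0.56 in PrE. The title letters A to C stand only at E3.75 and D to H only at E3.5, so stage and letter cannot be told apart, and the 2 comparisons of each genotype share their ICM embryos. For EPI against ICM in WT, edgeR called 43 of the 13972 genes tested (0.308%) and 0 members. At an unadjusted p under 0.05, 1 member was higher and 5 were lower in EPI, where 14.1% of all genes passed. Uqcrc1 had the smallest p. It stood at 505, 501 and 496 CPM in WT EPI, against 982, 975, 1410, 1435 and 2025 CPM in WT ICM, and every EPI embryo lay below every ICM embryo. Its log2 fold change was -1.43 (SE 0.27, edgeR adjusted p = 0.0621). The edgeR adjusted p was 0.0485 without the filter on low counts, and ran from 0.042 without WT ICM embryo 13 to 0.297 without WT EPI embryo 2 when each embryo was left out. With limma-trend the log2 fold change was -0.54 (adjusted p = 0.133).

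Uqcrc2 stood at 306, 301 and 252 CPM in WT EPI, against 410 to 624 CPM in WT ICM with a mean of 546 (log2 fold change -0.92, SE 0.24, edgeR adjusted p = 0.109). Atp5f1 (chr3:105942698-105960099, minus), subunit b of the stator of complex V, stood at 496, 632 and 542 CPM in WT EPI and 1115, 1604, 967, 900 and 962 CPM in WT ICM (log2 fold change -0.98, SE 0.25, adjusted p = 0.107). Cox7a2l, which helps to join complexes III and IV, averaged 55.8 ± 6.9 CPM in WT EPI and 126 ± 36.9 CPM in WT ICM (log2 fold change -1.16, SE 0.34, adjusted p = 0.163). In these 3 genes, too, no WT EPI embryo reached a WT ICM embryo. A pseudogene nearly identical to Cox7a2l holds 41.8% as many counts as the gene itself, so its level is uncertain.

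Sdhb averaged 263 ± 29.4 CPM in WT EPI and 416 ± 120 CPM in WT ICM (log2 fold change -0.64, SE 0.28, edgeR adjusted p = 0.33). Atp5d was the member that was higher, at 532, 390 and 420 CPM in WT EPI against 352, 116, 180, 177 and 278 CPM in WT ICM (log2 fold change 1.02, SE 0.36, edgeR adjusted p = 0.242). In all, 7 of 42 members had no overlap, or 16.7%, where 15.3% of all genes tested had none. The medians were -0.43 in complex II (0 of 4 higher), -0.16 in complex III (4 of 9), 0.38 in complex IV (9 of 12) and -0.19 in complex V (6 of 17), against -0.14 for all genes. Without WT embryo 22 the median of complex IV was 0.74 and that of complex III 0.32.

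For EPI against ICM in MUT, edgeR called 8 of the 11733 genes tested (0.0682%) and 0 members, and at an unadjusted p under 0.05 there were 2 members, both lower in EPI, where 8.08% of all genes passed. Uqcrc1 was again 1 of them, at 528, 350, 498 and 446 CPM in MUT EPI against 583, 580, 787, 1160 and 1432 CPM in MUT ICM (log2 fold change -1.02, SE 0.38, edgeR adjusted p = 0.405). The other was Atp5s, at 0 to 1.003 CPM in MUT EPI against 8.63 to 100 CPM in MUT ICM (edgeR adjusted p = 0.178), which passed the filter on low counts through the ICM alone and so had to differ. These 2 of 42 members had no overlap (4.76%), where 4.89% of all genes tested had none. The medians were 0.08 in complex II (4 of 4 higher), -0.33 in complex III (1 of 9), 0.09 in complex IV (10 of 12) and -0.26 in complex V (6 of 17), against -0.06 for all genes. Complex IV rested on MUT embryo 10, without which its median was -0.19 with 3 of 12 higher.

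For PrE against ICM in WT, edgeR called 46 of the 13190 genes tested (0.349%) and 0 members. At an unadjusted p under 0.05, 2 members were higher and 3 lower in PrE, where 14.8% of all genes passed. Uqcrc1 stood at 564, 586 and 965 CPM in WT PrE against 975 to 2025 CPM in WT ICM (log2 fold change -0.92, SE 0.32, edgeR adjusted p = 0.235). Uqcrc2 averaged 287 ± 41.0 CPM in WT PrE and 546 ± 87.2 CPM in WT ICM (log2 fold change -0.92, SE 0.25, adjusted p = 0.157), and Sdhb 224 ± 87.4 and 416 ± 120 CPM (log2 fold change -0.88, SE 0.34, adjusted p = 0.27). The higher members were Cyc1, at 680, 489 and 606 CPM in WT PrE, and Cox5b, a zinc-binding matrix subunit of complex IV, at 546, 491 and 603 CPM. In WT ICM Cyc1 ran from 79.4 to 487 CPM and Cox5b from 179 to 488 CPM, so the gap between the stages was narrow in both. Their log2 fold changes were 1.51 for Cyc1 (SE 0.58, edgeR adjusted p = 0.261) and 0.91 for Cox5b (SE 0.33, adjusted p = 0.241). In all, 6 of 42 members had no overlap after TMM scaling, or 14.3%, where 14.6% of all genes tested had none. RLE levels were 1.075 times TMM levels in WT PrE embryo 3 and 0.899 times in WT ICM embryo 16, so Uqcrc1 overlapped with RLE. Cyc1 did so too, with factors of 0.976 in WT PrE embryo 2 and 0.987 in WT ICM embryo 13. The medians were -0.42 in complex II (1 of 4 higher), -0.18 in complex III (3 of 9), 0.60 in complex IV (11 of 12) and 0.05 in complex V (9 of 17), against -0.17 for all genes.

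For PrE against ICM in MUT, edgeR called 61 of the 12040 genes tested (0.507%) and 0 members. At an unadjusted p under 0.05, 1 member was higher and 1 lower in PrE, where 9.46% of all genes passed. Sdhd stood at 324, 288, 333 and 307 CPM in MUT PrE against 244, 125, 173, 183 and 102 CPM in MUT ICM (log2 fold change 0.91, SE 0.33, edgeR adjusted p = 0.329). It was the 1 member of 42 with no overlap (2.38%), where 6.81% of all genes tested had none. The lower member was Atp5s, at 1.49 to 10.8 CPM in MUT PrE against 8.63 to 100 CPM in MUT ICM (adjusted p = 0.456). The medians were 0.23 in complex II (4 of 4 higher), -0.53 in complex III (1 of 9), -0.03 in complex IV (5 of 12) and -0.17 in complex V (6 of 17), against -0.06 for all genes.

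Between the lineages of E3.75 edgeR called no member, in fits that ignored the pairing of EPI and PrE by embryo. In WT, edgeR called 4 of the 12733 genes tested (0.0314%) and 0 members, and 4 members, all lower in EPI, had an unadjusted p under 0.05, where 9.35% of all genes did. Cyc1 stood at 379, 432 and 475 CPM in WT EPI against 680, 489 and 606 CPM in WT PrE (log2 fold change -0.46, SE 0.18, edgeR adjusted p = 0.502). Cox5b averaged 409 ± 27.1 CPM in WT EPI and 547 ± 55.6 CPM in WT PrE (adjusted p = 0.421), Cox7a2l 55.8 ± 6.9 and 103 ± 26.4 CPM (adjusted p = 0.382), and Atp5f1 557 ± 68.9 and 762 ± 116 CPM (adjusted p = 0.481). The groups did not overlap for 13 of 42 members, or 31%, where 18.4% of all genes tested had none. The medians were 0.03 in complex II (3 of 4 higher), -0.00071 in complex III (4 of 9), -0.15 in complex IV (3 of 12) and -0.05 in complex V (7 of 17), against 0.03 for all genes.

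In MUT, edgeR called 177 of the 10698 genes tested between EPI and PrE (1.65%) and 0 members, and at an unadjusted p under 0.05, 1 member was higher and 4 lower in EPI, where 10.2% of all genes passed. Sdhd stood at 192, 91.7, 230 and 201 CPM in MUT EPI against 324, 288, 333 and 307 CPM in MUT PrE, with every EPI sum below every PrE sum (log2 fold change -0.80, SE 0.27, edgeR adjusted p = 0.268). Uqcrc1 averaged 455 ± 78.2 CPM in MUT EPI and 629 ± 87.2 CPM in MUT PrE (adjusted p = 0.372). Uqcr10 averaged 458 ± 91.1 and 314 ± 55.4 CPM (adjusted p = 0.323), and Atp5c1, the central shaft of the F1 motor, 660 ± 75.0 and 890 ± 168 CPM (adjusted p = 0.424). Atp5s was the last of the 5, with 36 counts in all of MUT EPI and 849 in MUT PrE, through which it passed the filter. The groups did not overlap for 3 of 42 members, Sdhd, Uqcrc1 and Atp5s (7.14%), where 10.2% of all genes tested had none. The medians were -0.15 in complex II (1 of 4 higher), -0.05 in complex III (4 of 9), 0.18 in complex IV (9 of 12) and -0.03 in complex V (8 of 17), against 0.02 for all genes.

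In the isoform families 1 form supplied most transcripts in every group, by shares computed per transcript length. Cox6a1 made up 99.9 to 100% of the Cox6a family in each embryo and its muscle form Cox6a2 the rest. Cox6b1 made up 98.7 to 100% and Cox6b2, known from testis, up to 1.33%. Cox7b made up 97.9 to 100% against Cox7b2, and Cox8a 100% in all but 1 embryo. Subunit 7a was the mixed family. Its shares include Cox7a2l, which averaged 8.43% in WT EPI, the lowest of the groups, to 17.6% in WT ICM, the highest. The level of Cox7a2l is uncertain through its pseudogene, so the shares of Cox7a1 and Cox7a2 carry that uncertainty. Cox7a2, the widely expressed form, averaged 81.3 ± 5.55% in MUT EPI, 87.2 ± 2.85% in WT EPI, 78.9 ± 3.60% in MUT PrE, 80.0 ± 2.87% in WT PrE, 78.3 ± 10.6% in MUT ICM and 76.5 ± 7.11% in WT ICM. Cox7a1 held 9.15 ± 1.79% of the family in MUT EPI and 4.42 ± 1.88% in WT EPI, and 11.8 ± 3.28% in MUT PrE and 7.28 ± 0.648% in WT PrE. At E3.75 the MUT embryos thus held the larger share in both lineages (EPI 7.07 to 11.4% against 2.96 to 6.53%, PrE 8.04 to 14.5% against 6.57 to 7.83%), with no test of the share. In the ICM the share was 1.296 to 17.5% in MUT and 1.13 to 11.7% in WT. Cox7b is the member encoded on the X chromosome, and its level was 353 ± 75.1 CPM in MUT PrE and 429 ± 125 CPM in WT PrE, 433 ± 75.1 and 475 ± 74.2 CPM in EPI, and 408 ± 250 and 396 ± 272 CPM in the ICM.

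Subunit c, which forms the membrane ring of ATP synthase, is encoded by Atp5g1, Atp5g2 and Atp5g3. With the longest annotated transcript of each gene, Atp5g3 averaged 57.6 to 64.9% of the family over the 6 groups and Atp5g1 17.9 to 27.3%. With the shortest principal transcript (596 bases for Atp5g1 in place of 4715), Atp5g1 led with 57.4 to 72.0%, so the order of these genes is not settled by the counts. The share of Atp5g2 was lower in the ICM by either length: with the longest it averaged 12.5 ± 3.84% in MUT ICM and 12.5 ± 3.04% in WT ICM, against 24.5 ± 1.88% in MUT EPI, 20.8 ± 4.36% in WT EPI, 21.5 ± 2.85% in MUT PrE and 20.2 ± 3.98% in WT PrE. Pseudogene rows nearly identical to Atp5g1 and Atp5g2 hold 7.91% and 5.33% as many counts as these genes, and those to Atp5l and Cox7c 16% and 5.33%. These shares cover 1 of the 10 near-identical rows of Atp5g1 and 8 of the 9 of Atp5l. Counts of the other rows were not summed, so the levels carry at least that uncertainty.

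The highest and lowest ICM embryos were set beside transcript length. Of the 46 members, 28 have a longest principal transcript under 1000 bases, with 0 in complex II, 4 in complex III, 14 in complex IV and 10 in complex V. By this rule Atp5g1 counts as longer (4715 bases), though its shortest principal transcript has 596 bases. Of the 41 members at 10 CPM or more, 36 were lowest in embryo 10 among the MUT ICM embryos, namely all 23 of the shorter ones and 13 of the 18 longer ones; the exceptions were Sdha, Sdhd, Atp5a1, Atp5b and Atp5s. Among the WT ICM embryos, 25 of the 41 were highest in embryo 22, including 21 of the 23 shorter ones. The shares of all genes with these extremes are not given, so the counts do not set the members apart from other genes. The shorter members summed to 15608, 1435, 5928, 12091 and 10895 CPM in MUT ICM embryos 2, 10, 18, 23 and 24, and to 4635, 6860, 7216, 7607 and 15708 CPM in WT ICM embryos 13, 16, 20, 21 and 22. The longer members summed to 7162 to 12433 CPM in MUT ICM and 10070 to 12869 CPM in WT ICM, a much narrower range. At E3.75 the shorter members summed to 7499 to 9548 CPM in MUT EPI, 8603 to 9542 in WT EPI, 6997 to 8663 in MUT PrE and 8734 to 10249 in WT PrE.

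Other short genes moved with them. Among 7905 other genes at 10 CPM or more, the 1583 shortest (at most 1536 bases) took 11.7% of all counts in MUT ICM embryo 10 and 21.6% in embryo 18, 19.6% in WT ICM embryo 13 and 36.8% in embryo 22, against 23.3 to 28.3% in the E3.75 sums. The sum of embryo 10 held 19 cells and 88167705 counts, and the depth of its single cells was not set beside these values. Pairwise correlations of the 41 members had a median r of 0.55 over the 10 ICM sums and 0.07 over the 14 E3.75 sums (820 pairs, which share libraries and depth). No such value is given for pairs of other genes. The non-members most like the mean of the members over the 24 sums were Fau and Rpl41 (r = 0.96 each), Ndufa4 (0.96), Rps27 (0.96) and Rpl35 (0.95); 4 of these 5 encode ribosomal proteins or a fusion with one, and Ndufa4 is a subunit now placed in complex IV. Some members counted as longer varied as much. On the log2 scale the SD in MUT ICM was 1.58 for Uqcrq, against 1.16 for the shorter Cox8a. Uqcrq counts as longer by its longest principal transcript of 1521 bases. The relation of spread to length was not tested.

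**Figure D5:**
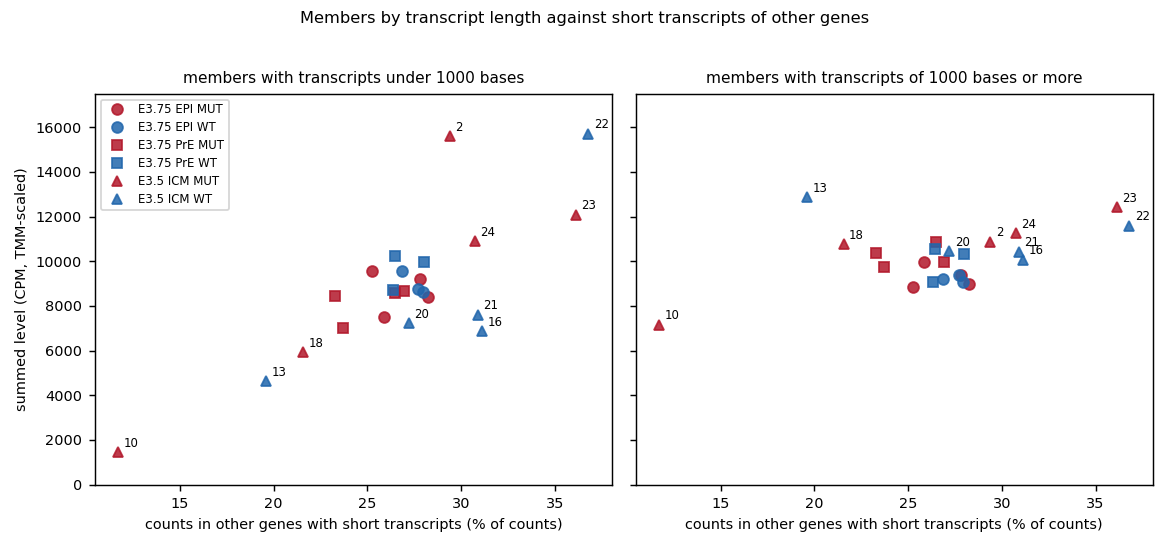
Summed level (CPM) of members with transcripts under 1000 bases (left) and of longer members (right) against the percentage of counts in other short genes, for each embryo sum; colours and shapes give the 6 groups and numbers the ICM embryos. ICM embryos spread along both axes on the left (1435 to 15708 CPM, 11.7 to 36.8%) and less in level on the right, while the E3.75 sums lie close together.

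The other genes of the pathway were counted by list, and none was called by edgeR in any of the 12 comparisons. The lists held 6 further subunits and partners (Cox4i1, Cox4i2, Ndufa4, Cycs, Cyct and Atpif1), 4, 6, 21 and 3 assembly factors of complexes II, III, IV and V, and 6 mitochondrially encoded subunits. Between MUT and WT ICM, 0 of 6 mitochondrial transcripts were higher in MUT (median log2 fold change -0.49). Of the 6, 4 averaged 0.743 to 22.3 CPM in MUT ICM, and near-identical rows were not searched for them. At an unadjusted p under 0.05, 1 of the 6 was lower. That was mt-Cytb, the cytochrome b at the centre of complex III, at 5873 CPM in MUT ICM and 12742 CPM in WT ICM (log2 fold change -1.12, SE 0.40, edgeR adjusted p = 0.727). All mitochondrially encoded mRNA (13 genes) took 3.54 ± 1.081% of counts in MUT ICM and 5.04 ± 0.993% in WT ICM, and 4.05 to 4.40% on average in the E3.75 groups. Of the assembly factors of complex II, 1 was higher and 1 lower in MUT ICM at an unadjusted p under 0.05: Sdhaf1, at 4.98 CPM in MUT ICM against 0.434 CPM in WT ICM (edgeR adjusted p = 0.745), and Sdhaf2, which inserts the flavin into Sdha, at 38.9 against 93.6 CPM (adjusted p = 0.749). Over all genes tested the share at that p was 6.64%. Of those of complex III, Uqcc1 was lower, at 62.2 CPM in MUT ICM and 142 CPM in WT ICM (adjusted p = 0.745). Of the factors of complexes IV and V, 0 of the 20 tested and 0 of 3 passed an unadjusted p of 0.05, with 14 and 2 of them higher in MUT.

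Between EPI and ICM in WT, 0 of the 6 mitochondrial transcripts were higher in EPI (median -1.28, 3 of them at an unadjusted p under 0.05, where 14.1% of all genes passed). Of the 6, mt-Co2, mt-Co3, mt-Atp6 and mt-Atp8 had few counts, averaging 0.489 to 8.36 CPM in WT EPI and 1.05 to 30.01 CPM in WT ICM. The count and median rest mainly on them. Rows of near-identical sequence were searched for the members only, so these counts may not give the levels of those transcripts. Among the abundant ones, mt-Co1, the catalytic subunit of complex IV, averaged 10874 CPM in WT EPI and 19428 CPM in WT ICM (log2 fold change -0.83, SE 0.16, edgeR adjusted p = 0.0624). In the same comparison nuclear complex IV had a median of 0.38, as given above. Between PrE and ICM in WT, 0 of the 6 were higher (median -1.14). Cycs, the cytochrome c that links complexes III and IV, averaged 107 CPM in both WT EPI and WT PrE against 293 CPM in WT ICM (log2 fold changes -1.43 and -1.44, adjusted p = 0.0835 and 0.178). Of the 20 assembly factors of complex IV tested, 9 were higher and 11 lower than in WT ICM in each lineage (medians -0.15 in EPI and -0.08 in PrE). At an unadjusted p under 0.05, 1 was higher and 0 lower in each, where 14.1% and 14.8% of all genes passed. That 1 was Lrpprc, which stabilises mitochondrial mRNA. It averaged 204 CPM in both WT EPI and WT PrE against 76.8 CPM in WT ICM (log2 fold changes 1.42 and 1.43, edgeR adjusted p = 0.131 and 0.164). Base composition moved with the stage in WT: the median log2 fold change of all genes was -0.26 among those of lowest GC content and 0.26 among those of highest for EPI against ICM, and -0.35 and 0.29 for PrE against ICM. Transcript length moved with the stage as well. For EPI against ICM in WT the median was -0.45 among genes of shortest transcripts and 0.05 among those of longest. For PrE against ICM in WT it was -0.49 among the shortest and -0.09 among those of middle length. The part of base composition or length in the values above was not tested.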

How the data were processed

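Single-cell RNA sequencing gave 171 cells. The authors deposited raw counts per gene and cell, whole numbers with no normalization; STAR, HTSeq and the build mm10 are named in the submitters' processing notes, whereas tool versions, the library method and the strand setting are not given there. Strand being unknown, overlapping and antisense genes cannot be separated, and without molecular identifiers PCR copies cannot be told from molecules. Gene names, types and transcript lengths came from GENCODE vM21 (49412 rows matched, and the other 259 held 0.0101% of counts). The first number after the genotype in a title was taken as the embryo; nothing states separate litters, so p-values measure the spread between these embryos. Lineage is the submitters' label, no cells were clustered or removed, doublets were not searched for, and 0 pairs of cells had identical counts.

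Counts were summed per embryo and lineage. For each comparison only its own groups entered the fit, with edgeR 4.0.16 (R 4.3.3; TMM, filterByExpr with a minimum count of 10, robust quasi-likelihood test), adjusted by Benjamini-Hochberg over all genes tested, with a threshold of 0.05. Of the 46 members 42 passed the filter in every comparison of 2 groups and 43 in the differences of effects; a member that passed only through 1 group had to differ. The SE is the absolute log2 fold change over the square root of F and restates the test. Alternatives were DESeq2 1.42.0, RLE scaling, limma-trend (limma 3.58.1) on embryo means of log2(CPM + 1), all genes without the low-count filter, removal of 7 cells of low depth (3 median absolute deviations), removal of sums of 1 cell, embryo sex, the title letter, a replicate block, and each embryo left out. The fits were tested on simulated data. Python 3.11.15, numpy 2.4.6, pandas 2.3.3, scipy 1.17.1 and matplotlib 3.10.9 were used. EPI and PrE of 1 embryo share the animal, so the numbers pair the lineages (correlation of deviations 0.0413 to 0.151). The main fits held no embryo term, so the p-values printed for lineages and for their difference of genotype effects ignore this pairing. The replicate block, which uses it, was an alternative only.

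The members, lists and tests were chosen with earlier results of these data known. Genes were named by a rule: in each comparison and complex the member with the smallest p, all of complex II, the isoform families and the X-linked member. Genes with an unadjusted p under 0.05 and those printed as sequences were named after their values were seen. RefSeq sequences carry the build GRCm38.p6; protein sequences were not used here.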

Additional observations from a re-analysis of the deposited data

Results flagged for a closer look

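Values of 136 sets of a member or complex in 1 group of 4 or 5 embryos were looked at, and an embryo is listed where its gap to the nearest other exceeds Dixon's 95% critical value; chance gives about 1 in 20 sets. Levels are CPM.

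WT ICM embryo 22 stood above the other 4 WT ICM embryos in Atp5j (1911, others 417 to 747), Cox5a (722.2, others 40.6 to 158), Cox6a1 (975.6, others 205 to 394) and Uqcrq (781, others 241 to 393). It did so also in the summed level of complex III (7385, others 3388 to 4337) and of complex IV (7292, others 2049 to 3560).

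Among MUT ICM embryos, embryo 23 stood above the others in Uqcrfs1 (727.3, others 184 to 305) and Atp5s (100.5, others 8.63 to 18.9). Embryo 24 did so in Cox7a1 (94.06, others 2.89 to 27.99) and Sdhc (282.1, others 59.5 to 121), and embryo 2 in Cox6b2 (10.39, others 0 to 2.76).

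At E3.75, the PrE sum of MUT embryo 1 was low in Cox7a2l (51.04, others 76.8 to 80.6) and in the summed level of complex IV (3467, others 4625 to 4786). MUT EPI embryo 4 was high in Uqcrc2 (334.5, others 247 to 252) and Atp5s (1.003, others 0 to 0.118), and MUT PrE embryo 4 in Cox6b2 (3.324, others 0 to 0.0437). The 1-cell EPI sum of MUT embryo 2 was high in Cox6a1 (965.1, others 606 to 648).

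The remaining values are of isoforms near 0 in the other embryos of the group: Cox6a2 in MUT ICM embryo 10 (0.07969), and Cox7b2 in MUT EPI embryo 5 (2.911), MUT ICM embryo 24 (1.697) and WT ICM embryo 20 (1.396).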

How the results depend on the processing

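The count of members called was 0 in the report and stayed at 0 in 175 pairings of a comparison with an alternative and moved in 9. In WT EPI against ICM it was 1 without the low-count filter (Uqcrc1), 4 with DESeq2 and 10 with limma-trend, and without each embryo in turn 0 to 1, the 1 being Uqcrc1 without WT ICM embryo 13. The 10 were all higher in EPI, where the median of all genes was 0.68. In WT PrE against ICM it was 1 with DESeq2 and 6 with limma-trend, all 6 higher in PrE, where the median of all genes was 0.56. DESeq2 called 1 in MUT EPI against ICM and 1 in the difference of genotype effects between EPI and ICM, and limma-trend called 1 in MUT PrE against ICM (Sdhd). The cause was not tested; limma-trend weights cells equally and the sums weight them by depth.

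Of the named members' fold changes 717 kept their direction and side of the threshold, 11 passed it under an alternative and 5 changed sign. Sdhb in EPI became -0.0099 without sums of 1 cell and ran from -0.0099 to 0.35 without each embryo in turn. With embryo sex as a covariate Sdhb and Cox6a1 became -0.0201 and -0.016 in MUT EPI against ICM. Uqcrc1 in MUT PrE against ICM became 0.11 with limma-trend.

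With the replicate block 0 members were called in any comparison it could be fitted to; over all genes the block moved the count from 177 to 74 in MUT EPI against PrE and from 4 to 0 in WT. MUT and WT embryos share only the numbers 1 and 2 and belong to different animals (correlations -0.0345 to 0.133), so that block carries no pairing. Counts over all genes ranged widely, up to 4044 with limma-trend in WT EPI against ICM. Stage comparisons could not be fitted with the letter.

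Depth limits the rare isoforms: Cox6a2, Cox8b and Cox8c had 8, 0 and 1 counts. RLE levels were 0.899 to 1.11 times TMM levels. Members and genes with no overlap between groups were counted on TMM levels, so narrow gaps can close with another scaling.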
